A study of Mus musculus with 5 samples.

Results

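The genes described here encode the vacuolar ATPase, the cathepsins and a set of lysosome membrane proteins and regulators, and they were read in the luminal layer of the mouse uterus around embryo attachment. Members were the rows of the count table whose gene symbol began with Atp6v0, Atp6v1 or Atp6ap, or consisted of Cts and 1 further letter, together with Lamp1, Lamp2, Cd63, Scarb2, Npc1, Npc2, Tfeb and Mcoln1. This rule gave 52 of the 23420 genes in the table, and it used names only. By role the members were 10 genes of the V0 sector, 13 of the V1 sector, 3 accessory subunits, 18 cathepsins and 8 membrane genes and regulators.

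All 5 libraries came from wild-type C57BL/6N mice, with the day of the vaginal plug counted as day 1 of pregnancy. Day 3 was represented by 1 library (morning), day 4 by a morning and an evening library, and the morning of day 5 by 2 libraries. Of the day 5 libraries, 1 held luminal tissue distant from the attached embryo (also called away) and 1 held tissue next to it (around), and their sample names carry the terms Mpole and Ampole. In the paper's figures M stands for the mesometrial and AM for the anti-mesometrial pole of the uterus. If the sample names mean these poles, nearness to the embryo and pole cannot be told apart in any difference between the day 5 libraries. The study's methods describe laser microdissection of luminal epithelium and amplification with a kit for very low RNA input. They also state that RNA of several independent samples was combined for each Lif-floxed and Lif mutant group, but for the wild-type libraries neither pooling nor the age of the mice is given in the sources used here.

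With 1 library per condition no difference has a replicate check, so no test was made and no p-value is given. Differences are between 2 libraries, not between conditions. A gene was counted as higher or lower where its log2 CPM (counts scaled to 1000000 per library by TMM, with a prior count of 2) differed by at least 1 between 2 libraries, a 2-fold difference. Brackets give exact 95% intervals of the ratio of 2 counts, which cover counting error only. Levels of different genes were compared as RPKM, which divides the CPM by gene length in kilobases. In such bulk samples, fewer cells of a type and less RNA per cell cannot be told apart.

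Total counts lay between 15334674 and 19529491 per library, and 15274 to 15888 genes were counted. A mean of at least 1 CPM over the 5 libraries was reached by 12918 genes and by 38 of the 52 members. These were 7 of the V0 genes, 9 of the V1 genes, 2 accessory subunits, 12 cathepsins and all 8 membrane genes and regulators. Of the 14 others, 11 had at most 3 counts in every library, 7 of them none, and Ctse, Atp6v1c2 and Atp6v0e2 had at most 27 counts. The label luminal layer was checked against 8 epithelial genes, among them Krt8, Krt18, Epcam and Cdh1, and all 8 were counted above 3 reads in every library, with a summed level of 4683 to 7064 CPM. Markers of other cells were present as well. A list of 11 stromal genes summed to 465 to 671 CPM, and 5 smooth muscle genes summed to 10.8 to 31.6 CPM in 4 libraries and to 392 CPM around the embryo. The stromal sum covers opposite moves, since around minus away 2 of the 11 were higher and 4 lower (13.3% and 15% of all genes). Hand2 differed by 2.66 and Lum by -2.98 in log2 CPM. The 4 glandular genes in the table summed to at most 3.92 CPM in 4 libraries and to 25.7 CPM around the embryo, and 4 endothelial genes summed to 9.39 to 93.9 CPM. For macrophages and other leukocytes, 10 genes summed to 802, 1353 and 1015 CPM on day 3, day 4 morning and day 4 evening, to 556 CPM distant from the embryo and to 129 CPM around it. A large part of these sums was Cd14 alone, at 465, 900, 633, 202 and 54.5 CPM in the same order. Of 12 embryo and trophoblast genes, 5 to 7 were at 0 in each of 4 libraries, where the list summed to 85.7 to 147 CPM, but only 1 was at 0 around the embryo, where the sum was 304 CPM. The parts of these cells in the results below were not tested.

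The vacuolar ATPase is a rotary pump that uses ATP to move protons into lysosomes, endosomes and secretory vesicles, and in some epithelia across the plasma membrane. Its V1 sector in the cytosol hydrolyses ATP, its V0 sector in the membrane carries the protons, and several subunits come in variants encoded by separate genes and used in different tissues. The low pH serves the cathepsins, proteases of which most are cysteine proteases and Ctsd is an aspartic protease. Tfeb, a transcription factor of the Mitf/Tfe family, switches on many lysosomal genes through CLEAR elements, whose core is an E-box. The uterine luminal epithelium is the layer to which the blastocyst attaches, and around the embryo it is later removed.

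The letters of this core are shown for the members because they are the known point of control that many lysosomal genes share. RefSeq promoter windows (GRCm38.p6, 250 bases before to 50 after a gene start) were found for 39 of the 52 members. Both strands were searched for TCACGTGA, the palindromic core of the CLEAR element, and for CACGTG, the shorter E-box contained in it. At least 1 window held TCACGTGA in 6 of the 39 members (15.4%), compared with 304 of all 27025 genes with a window (1.12%) and 0.974% of all windows. CACGTG was found in 10 of the 39 members (25.6%), compared with 8.09% of all genes and 7.15% of all windows. A match is a description of letters and not a bound site. The members with TCACGTGA were Ctsd (chr7:142387908-142387937, minus strand), Mcoln1 (chr8:3500437-3500491, plus strand), Atp6v1a (chr16:44139373-44139402, minus strand), Atp6v0d1 (chr8:105566050-105566079, minus strand), Atp6v0e (chr17:26676387-26676416, plus strand) and Ctsa (chr2:164833749-164833778, plus strand, at a start inside the gene). Ctsa held 2 copies of TCACGTGA, and Ctsd held 1 further CACGTG. The stretches marked for these further copies (chr2:164833766-164833795 and chr7:142388056-142388077) are not shown. In the stretches below, written 5′ to 3′ on the strand of the gene, capitals mark the searched letters.
Ctsd: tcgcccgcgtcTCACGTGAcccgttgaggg
Mcoln1: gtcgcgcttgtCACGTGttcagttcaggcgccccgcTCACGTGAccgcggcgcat
Atp6v1a: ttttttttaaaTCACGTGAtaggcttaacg
Atp6v0d1: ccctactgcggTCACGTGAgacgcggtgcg
Atp6v0e: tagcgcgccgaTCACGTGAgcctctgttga
Ctsa: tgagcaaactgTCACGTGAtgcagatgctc

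The other 4 members with a match, Lamp1, Atp6v0b, Ctsl and Ctsf, held the shorter CACGTG alone. Of these, Lamp1 had 4 copies, of which 3 lie within 61 bases (chr8:13159089-13159149, plus strand), and Atp6v0b had 2 copies (chr4:117887331-117887376, minus strand).
Lamp1: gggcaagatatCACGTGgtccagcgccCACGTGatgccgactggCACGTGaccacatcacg
Atp6v0b: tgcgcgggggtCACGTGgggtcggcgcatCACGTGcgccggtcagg

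Between day 3 and day 4 morning all 6 genes with TCACGTGA had positive log2 changes, from 0.24 for Ctsa to 1.57 for Ctsd, with Mcoln1 at 0.81, Atp6v1a at 0.55, Atp6v0d1 at 0.45 and Atp6v0e at 0.25. Positive changes were seen in 26 of the 38 members kept and in 6482 of all 12918 genes in that comparison. With library totals in place of TMM scaling the values of Atp6v0e and Ctsa were slightly negative, that of Atp6v0e at -0.054. From day 4 morning to day 5 distant from the embryo their changes had both signs, with a value of -2.01 for Ctsd, 0.82 for Mcoln1, 0.81 for Atp6v1a, -0.42 for Atp6v0d1, -0.35 for Atp6v0e and 0.59 for Ctsa. Around the embryo the changes from day 4 morning were -2.41 for Ctsd, 0.74 for Mcoln1 and 0.18 for Atp6v1a. They were -0.06 for Atp6v0d1, -0.64 for Atp6v0e and -0.22 for Ctsa. Of the 6, only Ctsd passed the 2-fold difference in these comparisons. Among the members with no window in the table were Atp6v0d2, Atp6v0a2, Atp6v1b2 and Ctsb, so nothing can be said of these letters there.

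Of the 7 V0 genes that passed the filter, Atp6v0d2, Atp6v0a4 and Atp6v0a1 passed a 2-fold difference in at least 1 comparison and the other 4 did not. In the V0 sector the d subunit links the proton-carrying ring to the central shaft, and it is encoded by Atp6v0d1, used in most tissues, and Atp6v0d2, known from osteoclasts and kidney. Atp6v0d2 (chr4:19876838-19922566 in the mm10 coordinates of the count table) was counted 46 times on day 3 morning, 119 times on day 4 morning, 312 times on day 4 evening, 36930 times on day 5 distant from the embryo and 26157 times around it. These are 2.65, 6.63, 19.7, 1980 and 1519 CPM. Both day 5 libraries therefore lay far above all 3 earlier ones. Against day 4 morning the log2 difference was 8.20 [7.96, 8.50] distant from the embryo, which is 294-fold, and 7.82 [7.58, 8.11] around it, or 225-fold. By the size of the increase the gene was placed 18 of 12918 distant from the embryo and 79 of 12918 around it. It was also higher on day 4 evening than on day 4 morning, by 1.56 [1.26, 1.89], and higher on day 4 morning than on day 3, by 1.29 [0.82, 1.85], although the last value was 0.995 with library totals in place of TMM scaling. Between the day 5 libraries the difference was small, -0.38 [-0.41, -0.36] around minus away.

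Atp6v0d1 did not move with its variant. Its counts were 737, 1042, 834, 809 and 959 in the same order, and its level was 42.4 to 58.0 CPM in every library. Compared per length, Atp6v0d2 held 3.88%, 6.87% and 19.5% of the summed RPKM of the d pair in the 3 libraries before day 5, and 96.7% and 94.6% away from and around the embryo on day 5. The ratio of Atp6v0d2 to Atp6v0d1 RPKM went from 0.074 on day 4 morning to 29.5 distant from the embryo and 17.6 around it. In rank by RPKM among the 12918 genes, Atp6v0d2 was number 8929 on day 4 morning, number 50 distant from the embryo and number 96 around it. Atp6v0d2 is also known from cells of the macrophage lineage. Beside its increase, the 10 macrophage and leukocyte genes summed to 1353 CPM on day 4 morning, 556 CPM distant from the embryo and 129 CPM around it, although the median log2 change of the 10 genes was 0.03 between the first 2 of these libraries. Cd14 alone was at 900, 202 and 54.5 CPM in the same order. Of the 12 embryo and trophoblast genes, 5, 5 and 7 were at 0 in the 3 libraries before day 5. Distant from the embryo 6 were at 0, and around it 1, with summed levels of 87.8 and 304 CPM. The part of either kind of cell in the Atp6v0d2 values was not tested.

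The a subunit of V0 holds the channel through which protons pass and steers the pump to its membrane, and Atp6v0a4 is the variant known from acid-secreting cells of the kidney. Atp6v0a4 (chr6:38048483-38124586) was counted 20 times on day 3 morning, 17 times on day 4 morning, 171 times on day 4 evening, 608 times distant from the embryo and 626 times around it. Like Atp6v0d2, it was at its highest in both day 5 libraries, and it was already above both earlier libraries on day 4 evening. Its log2 difference from day 4 morning was 3.36 [2.79, 4.33] on day 4 evening, 4.95 [4.41, 5.89] distant from the embryo and 5.10 [4.57, 6.05] around it. The 2 day 5 libraries differed by 0.16 [-0.01, 0.32], an interval that includes 0. These folds rest on 17 counts in the day 4 morning library, and 259 of the 3285 exon bases of Atp6v0a4 are shared with the gene model D630045J12Rik on the same strand.

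Atp6v0a1 and Atp6v0a2, which serve in many cell types, stayed at low levels. Atp6v0a1 was counted 257, 475, 197, 162 and 263 times, and it was highest on day 4 morning. Its log2 difference from day 4 morning was -1.08 [-1.33, -0.84] on day 4 evening, -1.59 [-1.87, -1.35] distant from the embryo and -0.79 [-1.02, -0.57] around it. Atp6v0a2 was counted 237, 190, 166, 237 and 286 times and stayed between 10.5 and 16.6 CPM. Per length, Atp6v0a4 held 2.31% of the 3 genes' summed RPKM on day 4 morning, 27.5% on day 4 evening, 52.6% distant from the embryo and 46.7% around it. Over the same libraries Atp6v0a1 held 52.6%, 25.8%, 11.4% and 16.0%. A further a subunit gene, Tcirg1, is outside the naming rule, and its level was 3.22 RPKM on day 4 morning, 5.07 RPKM on day 4 evening, 6.59 RPKM distant from the embryo and 5.75 RPKM around it, compared with 9.92 and 11.1 RPKM for Atp6v0a4 in the day 5 libraries.

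**Figure D1:**
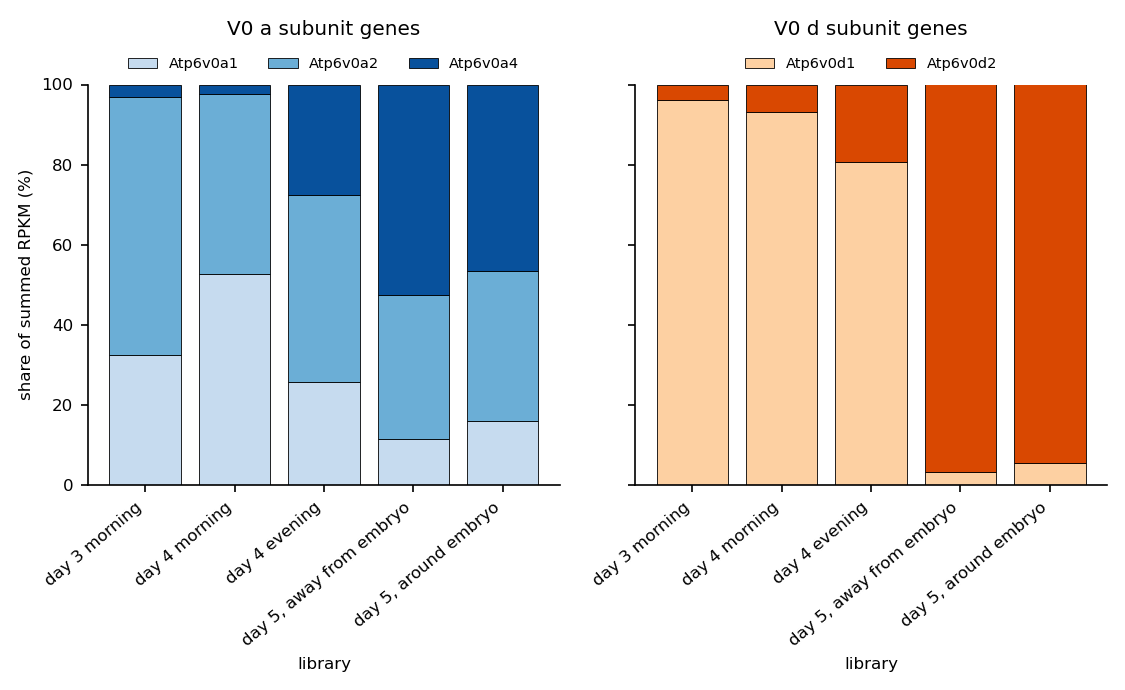
Stacked bars give the share (%) of the summed RPKM held by each variant gene of the V0 a subunit (left) and the V0 d subunit (right) in each of the 5 libraries, with no error bars because there is 1 library per condition. Atp6v0d2 went from 6.87% of the d pair on day 4 morning to 96.7% and 94.6% in the day 5 libraries, and Atp6v0a4 from 2.31% of the 3 a genes to 52.6% and 46.7%.

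In the rest of the V0 sector, Atp6v0e, which encodes a small membrane subunit, had the highest RPKM, from 685 around the embryo to 1324 on day 4 evening. Atp6v0b, a proton-carrying ring subunit, was at 88.2, 135, 158, 186 and 182 CPM, and it did not reach 2-fold in any of the 5 comparisons, which do not set day 3, its lowest level, against day 5. Atp6v0c, the main ring subunit, was counted 1 time in all 5 libraries together. This says nothing about its expression, because 1117 of its 1151 exon bases are shared in the table with Atp6v0c-ps2 on the same strand, and the treatment of reads that fall on both is not given in the sources used here.

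Of the 9 V1 genes that passed the filter, Atp6v1b2, Atp6v1d and Atp6v1g2 passed a 2-fold difference in at least 1 comparison. Atp6v1a, the catalytic subunit, was at 404, 592, 651, 1035 and 671 CPM, and its log2 difference from day 4 morning was 0.81 [0.77, 0.84] distant from the embryo and 0.18 [0.14, 0.22] around it. Atp6v1b2, its non-catalytic partner in the head of the pump, was counted 1492, 1880, 2800, 4522 and 4689 times. It was the only V1 gene higher on day 5, by 1.21 [1.13, 1.29] distant from the embryo and 1.38 [1.30, 1.46] around it. Its kidney variant Atp6v1b1 was at 0 in all libraries, which allows up to 0.161 to 0.190 CPM per library. Atp6v1d, a part of the central shaft, was counted 4138, 5739, 5765, 4439 and 2167 times and was lower around the embryo than on day 4 morning, by -1.34 [-1.42, -1.27]. Around against away, Atp6v1d differed by -0.92 [-0.99, -0.85], which became -1.23 with library totals. The most abundant V1 gene per length was Atp6v1f, with 336 to 529 RPKM and no 2-fold difference in any comparison. The remaining V1 genes included Atp6v1g2, chosen for mention after its values were seen, which was higher on day 4 morning than on day 3 by 1.22 [0.89, 1.60] and lower around the embryo than on day 4 morning by -1.18 [-1.55, -0.85], at 5.53 to 13.0 CPM. Atp6v1c1, Atp6v1e1, Atp6v1g1 and Atp6v1h reached no 2-fold difference in any of the 5 comparisons, which do not set day 3 against day 5. Atp6v1e1 was at 116 CPM on day 3, 259 CPM distant from the embryo and 191 CPM around it.

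The 2 accessory subunits moved apart. Atp6ap2, the (pro)renin receptor, takes part in assembly of the pump. It was counted 6182, 7424, 7120, 2117 and 1646 times, so both day 5 libraries were below all earlier ones. The log2 difference from day 4 morning was -1.86 [-1.94, -1.79] distant from the embryo and -2.11 [-2.19, -2.04] around it. Atp6ap1, also called Ac45 and named here after its values were seen, was counted 2630, 2568, 2866, 4541 and 5519 times, and its differences were 0.77 [0.70, 0.84] and 1.16 [1.10, 1.23]. Both genes lie on the X chromosome. Added up, the subunit and accessory genes took 0.335%, 0.341%, 0.406%, 0.645% and 0.434% of the counts. Of the counts distant from the embryo, Atp6v0d2 alone took 0.221%.

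**Figure D2:**
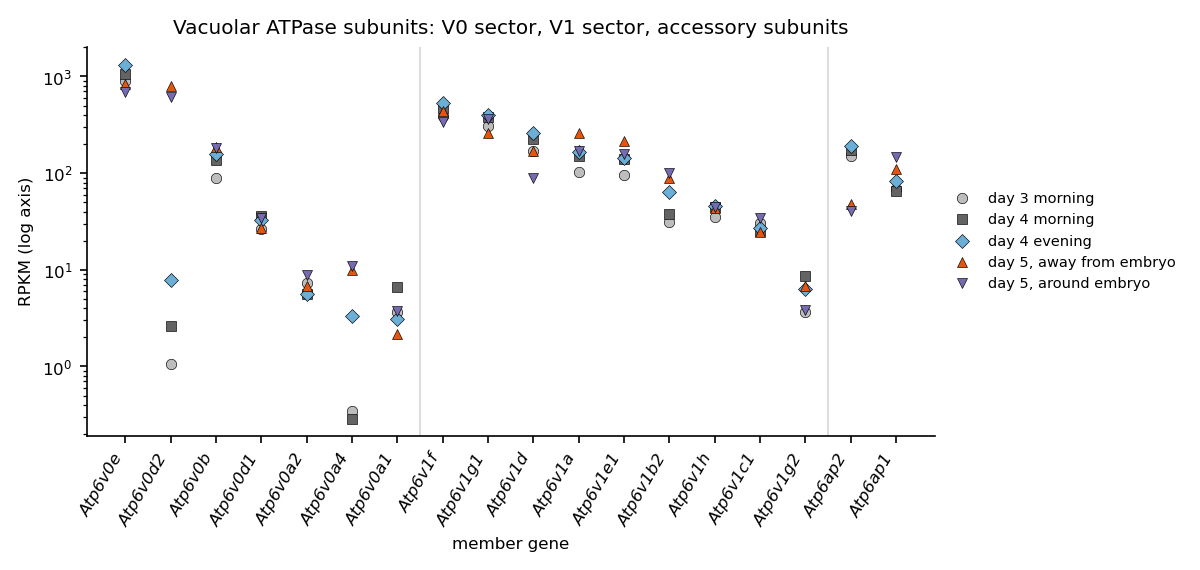
RPKM (log axis) of the 18 vacuolar ATPase members kept, each with 1 point per library, with vertical lines between V0 sector, V1 sector and accessory subunits. Atp6v0d2 lies at 1.06 to 7.88 RPKM before day 5 and at 791 and 607 RPKM on day 5, and Atp6v0a4 at 0.288 to 3.29 RPKM before day 5 and at 9.92 and 11.1 RPKM on day 5.

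Ctsd, the aspartic protease of the lysosome, was among the most abundant transcripts of the luminal layer. Ctsd (chr7:142375916-142387870, minus strand) was counted 191723 times on day 3 morning, 587746 times on day 4 morning, 486509 times on day 4 evening, 151094 times distant from the embryo and 106275 times around it. It thus took 1.25%, 3.01%, 2.94%, 0.905% and 0.555% of all counts. Both day 4 libraries were above the other 3. The log2 difference was 1.57 [1.56, 1.58] between day 4 morning and day 3, -2.01 [-2.02, -2.01] between day 5 away and day 4 morning, and -2.41 [-2.42, -2.40] between day 5 around and day 4 morning. By RPKM it was number 3 of 12918 genes in both day 4 libraries and still number 10 around the embryo.

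Ctsb, a cysteine protease with both endo- and exopeptidase activity, went the other way after day 4 morning. Like Ctsd, it was higher on day 4 morning than on day 3, by 0.36 [0.34, 0.39]. It was counted 29515, 39260, 66326, 63897 and 133393 times. The library around the embryo was the highest, by 1.82 [1.81, 1.84] over day 4 morning and 1.18 [1.16, 1.19] over day 5 away, the latter 0.87 with library totals. The RPKM ratio of Ctsd to Ctsb was 15.8, 36.3, 17.8, 5.74 and 1.93 in order of the libraries. Of the summed RPKM of all cathepsins, Ctsd held 96.1% and Ctsb 2.64% on day 4 morning, and 59.7% and 30.9% around the embryo. The exons of Ctsb overlap those of Fdft1 on the opposite strand by 774 bases, and whether reads were counted by strand is not given in the sources used here.

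Another 3 cysteine cathepsins were higher in both day 5 libraries. Ctsc, the dipeptidyl peptidase that activates serine proteases of immune cells, was counted 802, 543, 549, 7496 and 3861 times. Its log2 difference from day 4 morning was 3.73 [3.61, 3.86] distant from the embryo, or 13.3-fold, and 2.89 [2.76, 3.02] around it, with no increase on day 4 evening (0.20 [0.02, 0.37]). Around against away it was -0.84 [-0.90, -0.79], or -1.15 with library totals. Ctsl, an endopeptidase, was counted 1688, 1295, 1483, 3846 and 6298 times, with differences from day 4 morning of 1.51 [1.42, 1.61] away and 2.34 [2.26, 2.43] around. Ctsz, a carboxypeptidase, was counted 1034, 796, 746, 2639 and 3792 times, with differences of 1.67 [1.56, 1.79] and 2.31 [2.20, 2.42]. Ctsc was therefore higher distant from the embryo, and Ctsl and Ctsz were higher around it, although none of the 3 differed 2-fold between the day 5 libraries.

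Ctss, an endopeptidase best known from antigen-presenting cells, was counted 1192, 1239, 829, 819 and 159 times. It was lowest around the embryo, by -2.89 [-3.15, -2.66] against day 4 morning and -2.24 [-2.50, -2.00] against day 5 away. Beside it, 8 of 10 macrophage and leukocyte genes were lower around the embryo than on day 4 morning, with a median of -2.34, and 10 of 10 were lower than away from it, with a median of -2.10. Their part in the result was not tested.

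Among the other cathepsins, all named after their values were seen, Ctsf and Ctso were also lowest around the embryo. Ctsf was counted 102, 132, 171, 148 and 23 times, a difference of -2.47 [-3.27, -1.93] between around and away. Ctso was counted 1279, 1280, 851, 1157 and 506 times, a difference of -1.08 [-1.23, -0.93]. Ctsk, the collagen-degrading protease of osteoclasts, was at 7.60, 3.56, 4.30, 8.47 and 6.33 CPM, lower on day 4 morning than on day 3 by -1.07 [-1.55, -0.65] and higher distant from the embryo than on day 4 morning by 1.22 [0.82, 1.69]. Ctsw, known from cytotoxic lymphocytes, was at 1.05 to 2.90 CPM. It was higher on day 4 morning than on day 3 by 1.32 [0.62, 2.24], and lower around the embryo than on day 4 morning by -1.38 [-2.33, -0.67]. Ctsh and Ctsa did not reach a 2-fold difference in any of the 5 comparisons, which do not set day 3 against day 5. Ctsh was at 137 CPM on day 3, 68.5 CPM distant from the embryo and 47.8 CPM around it. Of the 18 cathepsins, 6 did not reach a mean of 1 CPM, and of these Ctsj, Ctsm and Ctsr, members of the rodent placental group, were at 0 in every library, while Ctsq was counted 2 times around the embryo.

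**Figure D3:**
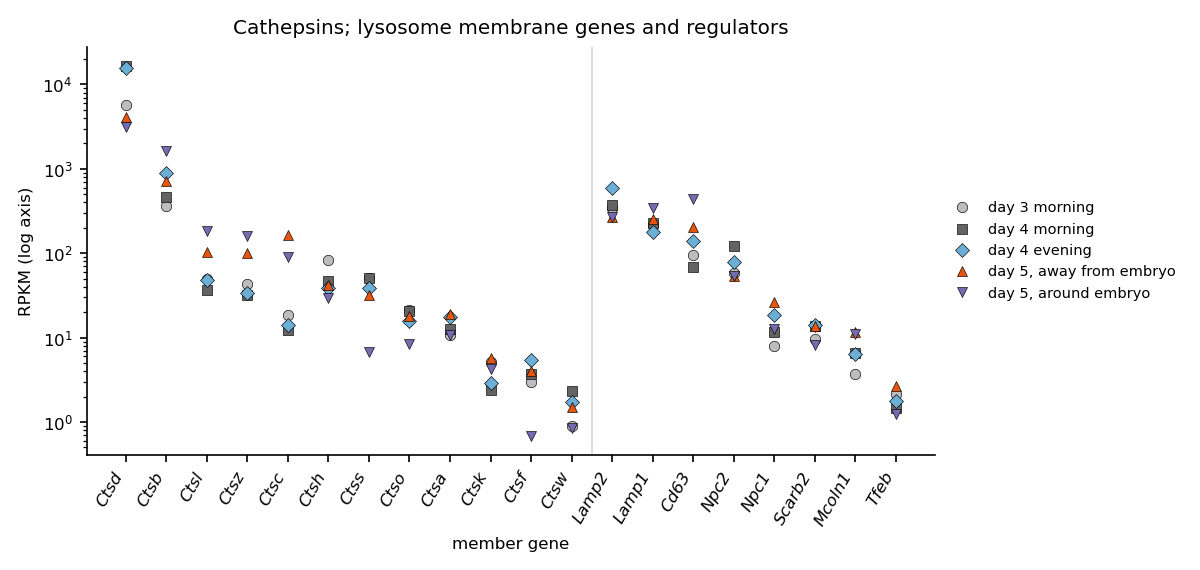
RPKM (log axis) of the 12 cathepsins kept (left of the line) and the 8 membrane genes and regulators (right), each with 1 point per library. Ctsd is at 16748 RPKM on day 4 morning and 3158 RPKM around the embryo, and Ctsb is at 461 and 1633 RPKM.

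The genes of the lysosome membrane did not move as a group. Lamp1 and Lamp2, the main glycoproteins of that membrane, were at 408 to 767 CPM and 1102 to 2446 CPM, and neither reached 2-fold in any of the 5 comparisons, which do not set day 4 evening, the highest level of Lamp2, against the day 5 libraries. Lamp1 was lowest on day 4 evening. Cd63, a tetraspanin of late endosomes, lysosomes and exosomes, was counted 1697, 1283, 2287, 3912 and 7847 times. Its log2 difference from day 4 morning was 1.02 [0.92, 1.12] on day 4 evening, 1.55 [1.46, 1.65] distant from the embryo and 2.67 [2.59, 2.76] around it. Around against away it was 1.12 [1.06, 1.18], and 0.81 with library totals.

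Npc1 and Npc2 act one after the other in the export of cholesterol from lysosomes, Npc2 in the lumen and Npc1 in the membrane. Npc2 was counted 3332, 7193, 4103, 3229 and 3016 times and was highest on day 4 morning. Its difference was 1.06 [1.00, 1.12] between day 4 morning and day 3, -1.21 [-1.27, -1.15] between away and day 4 morning and -1.19 [-1.26, -1.13] between around and day 4 morning. With library totals, the first of these was 0.76 and the second -0.93. Npc1 was counted 725, 1103, 1513, 2571 and 1131 times, and it was highest distant from the embryo, by 1.16 [1.06, 1.27] over day 4 morning, whereas around the embryo it differed from day 4 morning by 0.10 [-0.02, 0.22]. The difference around minus away was -1.07 [-1.17, -0.97].

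Scarb2, the receptor that carries glucocerebrosidase to lysosomes, was counted 352, 524, 469, 548 and 297 times, with no 2-fold difference in the 5 comparisons under TMM scaling and -1.07 around against away with library totals. Mcoln1, a calcium channel of the lysosome, was counted 130, 238, 204, 437 and 382 times, and its differences from day 4 morning were 0.82 [0.59, 1.06] away and 0.74 [0.51, 0.98] around. With library totals the value away was 1.10. Tfeb was counted 107, 74, 80, 140 and 61 times, at 3.54 to 7.51 CPM. It was highest distant from the embryo and lowest around it, a difference of -1.06 [-1.54, -0.64], or -0.70 as log2(RPKM + 1).

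Counted together, the members passed the 2-fold difference about as often as other genes. In at least 1 of the 5 comparisons it was passed by 22 of the 38 members (57.9%) and by 57.4% of all 12918 genes. Between day 3 and day 4 morning, 5 members were higher (Ctsd, Ctsw, Atp6v0d2, Atp6v1g2 and Npc2, 13.2% of members), compared with 7.41% of all genes. In the same comparison 1 member was lower (Ctsk, 2.63% of members), compared with 11.5% of all genes. The median log2 change was 0.28 for the members and 0.00 for all genes. With library totals, 2 members were higher and 2 lower, and the median of the members was -0.02 where that of all genes was -0.29. Of all genes, 4.16% were higher and 17.1% lower with that scaling. Between day 4 morning and evening, 3 members were higher (7.89%) and 1 lower (2.63%), compared with 7.20% and 6.94% of all genes, and the medians were 0.13 and 0.00.

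The next comparisons share the day 4 morning library with the preceding ones. Distant from the embryo on day 5, 9 of the 38 members were higher than on day 4 morning (23.7%) and 4 were lower (10.5%), compared with 15% and 14.3% of all genes. With library totals, 13 were higher and 3 lower, while the median of all genes moved to 0.28. That scaling left 20.8% of all genes higher and 10.8% lower. Around the embryo, 9 were higher and 9 lower (23.7% each), compared with 20.7% and 22.6% of all genes. The medians were 0.15 for members and 0.00 for all genes distant from the embryo, and -0.03 for both around it. Higher in both day 5 libraries were Atp6v0a4, Atp6v0d2, Atp6v1b2, Cd63, Ctsc, Ctsl and Ctsz, which are 7 members (18.4%) where 10.9% of all genes were higher in both. Lower in both were Atp6ap2, Ctsd and Npc2, which are 3 members (7.89%) where 10.8% of all genes were.

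**Figure D4:**
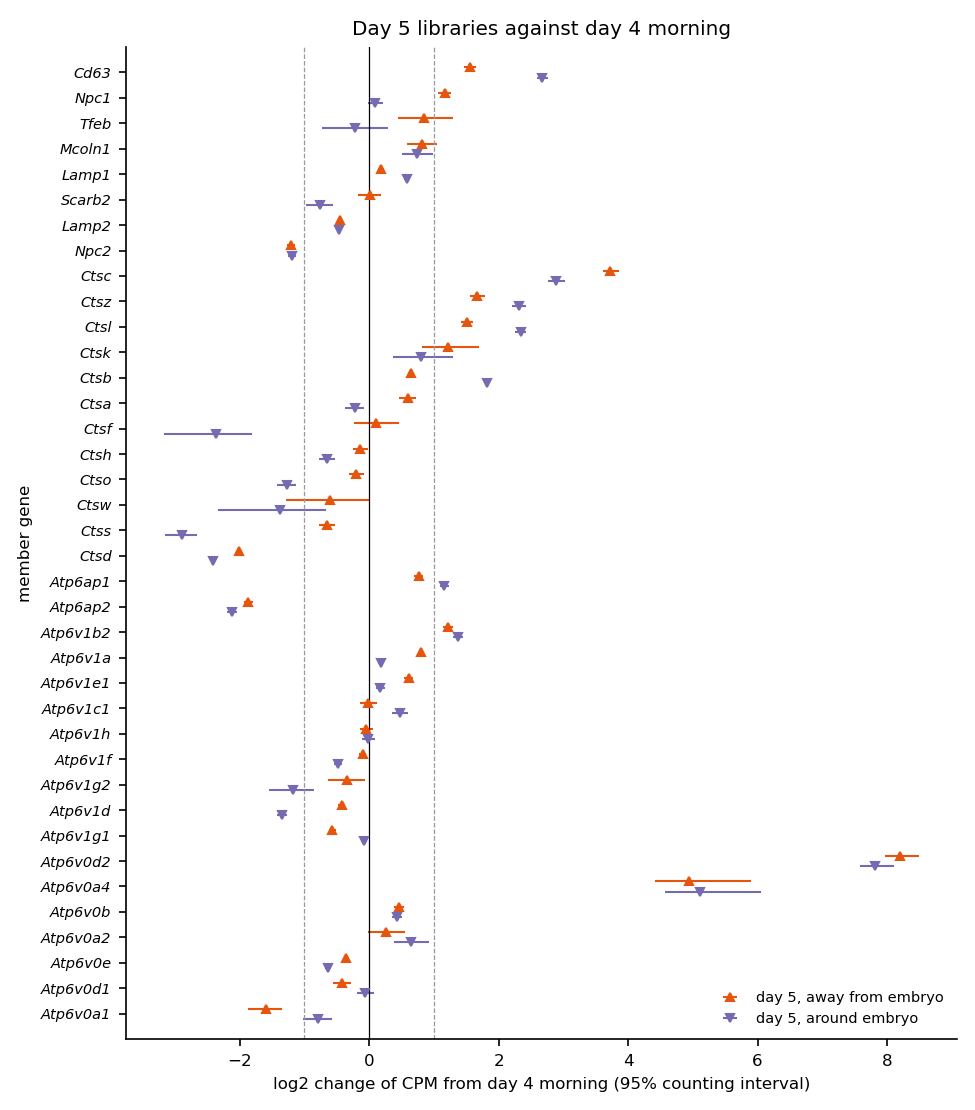
Log2 change of CPM from day 4 morning for the 38 members kept, away from (orange, upward triangles) and around (purple, downward triangles) the embryo on day 5, with 95% counting intervals and dashed lines at the 2-fold difference. Both libraries are compared with the same day 4 morning library, and the 2 points of a gene lie close together for Atp6v0d2 (8.20 and 7.82) and apart for Ctss (-0.65 and -2.89).

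Directly between the day 5 libraries, 2 members were higher around the embryo (Ctsb and Cd63, 5.26%) and 5 were lower (Ctsf, Ctss, Ctso, Npc1 and Tfeb, 13.2%), compared with 13.3% and 15% of all genes. The median was -0.27 for members and -0.05 for all genes. Between the same libraries the embryo and trophoblast genes summed to 87.8 and 304 CPM and the smooth muscle genes to 31.6 and 392 CPM, and their part in these differences was not tested. Single genes made up most of these sums, since Krt7, which is also epithelial, was at 79.3 and 182 CPM, and Des was at 19.8 and 354 CPM. Of the 8 epithelial genes, 4 were higher around the embryo and 0 lower, with a median of 1.09. Of the 10 macrophage and leukocyte genes, 0 were higher and 10 lower, with a median of -2.10. Both are to be read against the same 13.3% and 15% of all genes, and their part was not tested either. The split of members depended on the scaling, since with library totals 0 members were higher and 11 lower, while the median of all genes moved to -0.36. Of all genes, 9.97% were higher and 21.7% lower with library totals.

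**Figure D5:**
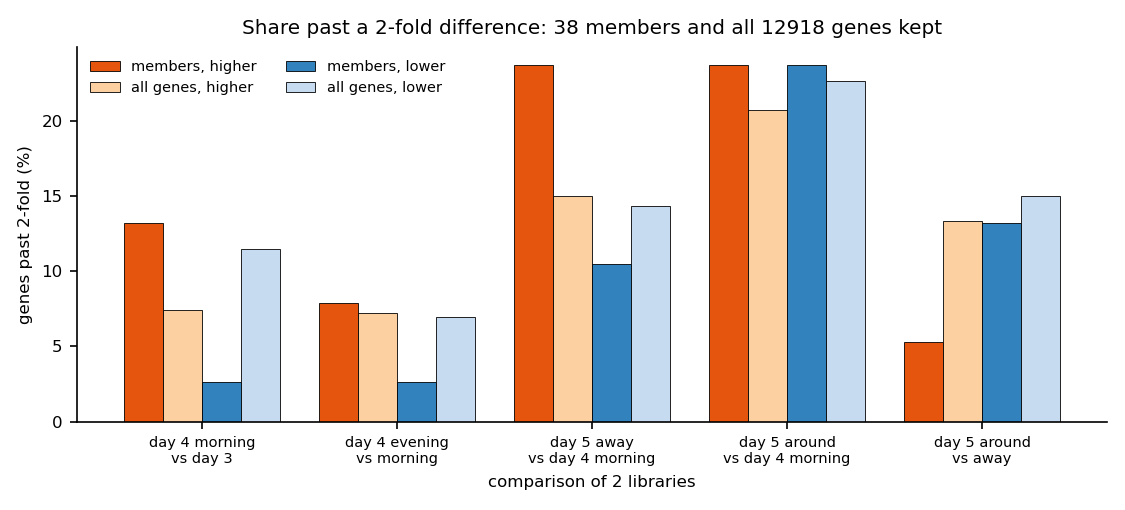
Bars give the percentage of the 38 members and of all 12918 genes that were at least 2-fold higher or lower in each of the 5 comparisons. The members stand at 23.7% higher distant from the embryo against 15% of all genes, and at 23.7% in both directions around it against 20.7% and 22.6%.

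Other genes of the same pathway, from a list of 93 of which 78 passed the filter, were also found on both sides. Against day 4 morning, 13 of the 78 were higher and 10 lower distant from the embryo, and 15 were higher and 21 lower around it, with medians of 0.14 and -0.10. These are 16.7% higher and 12.8% lower, where 15% and 14.3% of all genes were, and 19.2% higher and 26.9% lower, where 20.7% and 22.6% of all genes were. For the earlier steps the counts were 3 higher and 5 lower from day 3 to day 4 morning, and 3 higher and 6 lower from day 4 morning to evening. From day 3 these are 3.85% and 6.41%, where 7.41% and 11.5% of all genes were. To the evening they are 3.85% and 7.69%, where 7.20% and 6.94% of all genes were. Around against away, 6 were higher and 15 lower (7.69% and 19.2%), where 13.3% and 15% of all genes were. Among the 38 acid hydrolases other than cathepsins, 6 were higher and 4 lower distant from the embryo (15.8% and 10.5%), and 6 were higher and 9 lower around it (15.8% and 23.7%), to be read against the same shares of all genes. Gm2a, the activator of ganglioside breakdown, was at 41.4 CPM on day 4 morning, 175 CPM distant from the embryo and 253 CPM around it. Lipa, the lysosomal acid lipase, was at 375, 293 and 56.4 CPM in the same libraries. Around the embryo the changes of Gm2a and Lipa from day 4 morning were 2.61 and -2.73.

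Of the 6 genes of mannose phosphate sorting, which sends hydrolases to lysosomes, 2 were higher and 1 lower in each day 5 library than on day 4 morning. These are 33.3% and 16.7%, against 15% and 14.3% of all genes away and 20.7% and 22.6% around. Gnptab, a subunit of the enzyme that makes the tag, was at 28.4 CPM on day 4 morning and at 52.3 and 138 CPM away from and around the embryo. Sort1, a sorting receptor that works without the tag, was at 250, 50.5 and 23.1 CPM, differences of -2.31 and -3.43. Of 19 other membrane genes, 2 were higher and 3 lower distant from the embryo (10.5% and 15.8%, against 15% and 14.3% of all genes), and 3 were higher and 7 lower around it (15.8% and 36.8%, against 20.7% and 22.6%). Among them Mcoln2, a relative of Mcoln1, was counted 981 times on day 4 morning and 38 and 45 times on day 5, differences of -4.67 and -4.33, opposite in sign to Mcoln1.

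Of 10 genes of pump assembly and Tcirg1, 2 were higher and 1 lower distant from the embryo, and 2 were higher and 2 lower around it. These are 20% and 10% where 15% and 14.3% of all genes were, and 20% each where 20.7% and 22.6% were. Oxr1, a member of the TLDc family whose proteins bind the pump, was at 47.3, 185 and 108 CPM on day 4 morning, away and around. Wdr7, a rabconnectin subunit that takes part in assembly, was at 18.0, 7.45 and 6.62 CPM. Of the Tfeb relatives, Tfe3 was at 22.7, 28.1 and 54.2 CPM and was higher around the embryo than on day 4 morning by 1.25 [1.09, 1.43]. The others, named after their values were seen, were Mitf, counted 64, 20 and 28 times, and Tfec, counted 0, 0 and 47 times. Mitf differed from day 4 morning by -1.63 away and -1.08 around. Around the embryo, 1 of the 2 kept was thus higher and 1 lower (50% each, where 20.7% and 22.6% of all genes were). Of 13 cysteine protease inhibitors 3 passed the filter, and Cst3, the secreted cystatin C, was higher than on day 4 morning by 1.33 away and 1.11 around, while Cstb, its relative in the cytosol, differed by 0.14 and 0.72.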

How the data were processed

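RNA-seq of laser-microdissected luminal layer was analysed in 5 wild-type libraries. The authors aligned reads with HISAT2 to GRCm38/mm10 and counted them with featureCounts of Subread 2.0.0. The deposited values are raw counts per gene with a gene length in bases. The annotation, the strand setting and the handling of reads with several alignments are not given in the sources used here.

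Counts were scaled by TMM (edgeR 4.0.16, R 4.3.3). The prior count of log2 CPM was 2. Genes were kept from a mean of 1 CPM by library totals. A count of 0 was read as up to 3 counts (0.161 to 0.190 CPM). Intervals are exact Clopper-Pearson (scipy 1.17.1). No test was made.

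The members and lists were chosen with earlier results of these data known. Named by rule were the 15 members of at least 10 CPM with the widest range of log2 CPM, the member of highest RPKM in each role, the 8 membrane genes and regulators, members past 2-fold in opposite directions, and variants reaching 20% of their subunit. From other pathway genes, at most 3 were named per list. Alternatives were DESeq2 1.42.0 size factors, library totals with and without Rn45s and Lars2, no filter, a filter at 5 CPM, a prior count of 0.5, values as log2(RPKM + 1), folds of 1.5 and log2 of 2, an interval wholly past 2-fold, and shares without division by length. The computation of folds and counting intervals was checked on simulated counts.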

Additional observations from a re-analysis of the deposited data

Results flagged for a closer look

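Ctsa, a carboxypeptidase that also protects other lysosomal enzymes, moved in opposite directions in the day 5 libraries compared with day 4 morning. Its counts were 817 on day 4 morning, 1281 distant from the embryo and 671 around the embryo. The log2 difference was 0.59 [0.47, 0.72] away and -0.22 [-0.37, -0.07] around. Both libraries are compared with the same day 4 morning library, each stands for 1 sample, neither value reached 2-fold, and the difference was not tested. The exons of Ctsa overlap those of Pltp by 495 bases and those of Neurl2 by 325 bases, both on the opposite strand.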

How the results depend on the processing

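Of 600 values of named genes under other settings, 0 that had passed 2-fold changed sign, 435 stayed within the counting interval and 165 moved outside it, and of 100 counts of members 67 stayed within 1.5 times. For day 4 morning against day 3 (5 higher, 1 lower, median 0.28), library totals gave 2 higher, 2 lower and a median of -0.024, totals without Rn45s and Lars2 2 lower, log2(RPKM + 1) 3 higher and 0 lower, a 1.5-fold threshold 8 and 3, a log2 change of 2 gave 0 and 0, and an interval wholly past 2-fold 2 and 0. Of all genes, 4.16% were higher and 17.1% lower with library totals, and 5.66% and 14.1% without Rn45s and Lars2. The shares of all genes were 3.16% and 5.88% as log2(RPKM + 1), and 17.1% and 20.3% at 1.5-fold. They were 1.15% and 4.17% at a log2 change of 2, and 3.51% and 7.08% with the interval. For day 4 evening against morning (3 and 1), log2(RPKM + 1) gave 0 lower, no filter 2 lower, a 1.5-fold threshold 7 and 2, a log2 change of 2 gave 1 and 0, and the interval 0 lower. Of all genes, 2.31% were lower as log2(RPKM + 1), 7.06% with no filter and 3.1% with the interval. At 1.5-fold 14.8% were higher and 15.5% lower, and at a log2 change of 2 these were 2.37% and 1.38%. For day 5 away against day 4 morning (9 and 4), a 1.5-fold threshold gave 16 higher, and a log2 change of 2 gave 3 and 1. Of all genes, 24.9% were higher at 1.5-fold, and 5.76% were higher and 5.77% lower at a log2 change of 2. For day 5 around against day 4 morning (9 and 9), a log2 change of 2 gave 4 lower, where 10% of all genes were. For around against away (2 and 5, median -0.27), library totals gave 0 and 11 with a median of -0.58, totals without Rn45s and Lars2 0 and 11 with -0.55, log2(RPKM + 1) 3 lower, no filter 5 higher, a 1.5-fold threshold 5 and 12, a log2 change of 2 gave 0 and 2, and the interval 2 lower. Of all genes, 9.97% were higher and 21.7% lower with library totals, and 10.1% and 21% without Rn45s and Lars2. Lower were 7.25% as log2(RPKM + 1) and 9.11% with the interval, and 13.3% were higher with no filter. At 1.5-fold the shares of all genes were 21.2% and 25.3%, and at a log2 change of 2 they were 5.77% and 5.01%. The cause of the scaling differences was not tested. With library totals the median of all genes was -0.29, 0.05, 0.28, -0.06 and -0.36 in the 5 comparisons, and with TMM it was 0.00, 0.00, 0.00, -0.03 and -0.05. Without division by length, Atp6v0a4 held 60.4% and 53.3% of the counts of the 3 a genes away from and around the embryo, and Atp6v0d2 97.9% and 96.5% of the d pair. Of 25 shares of a and d genes, 23 moved outside the counting interval. The leading a gene also changed in earlier libraries. It was Atp6v0a2 per length on day 3 (64.4%) and day 4 evening (46.7%), but Atp6v0a1 by counts (50% and 36.9%). No paired analysis was possible because each condition has 1 library. Depth limits genes of few counts such as Atp6v0a4 before day 4 evening, Ctsw and Ctsf around the embryo.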
